A study of Mus musculus with 6 samples.

Results

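The 10 genes described here encode liver enzymes that break down histidine, serine, glycine, glyoxylate, proline and phosphoethanolamine. They are Hal, Uroc1, Amdhd1, Ftcd, Sds, Sdsl, Gldc, Agxt, Agxt2l1 and Prodh. They were chosen by symbol, and all 10 were found among the 17275 genes of the count table and passed the filter on low counts, which 12343 genes passed. RNA was sequenced from hepatocytes of C57BL/6 mice of the genotype Axin2rtTA;TetO-H2B-GFP, aged 63 days after birth by one label and 8 weeks by another. All mice drank doxycycline for 7 days, so that cells with an active Axin2 promoter made a green fluorescent histone, and libraries of both groups come from such mice. Fluorescent cells (Axin2-positive, 3 libraries) and non-fluorescent cells (Axin2-negative, 3 libraries) were sorted after non-parenchymal cells had been removed. The reporter records promoter activity over the days of doxycycline, and a histone-bound label can outlast that activity. A library of each group shares a sequencing index, which numbers the replicates 1, 2 and 3. How many mice stand behind a library is not given in the labels, so p-values measure the spread between these libraries.

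Amino acid breakdown is not spread evenly over the liver lobule. Textbook descriptions place much of the ammonia-releasing and glucose-forming breakdown of amino acids in hepatocytes near the portal vein, and glutamine synthesis in the cells next to the central vein, where Wnt signals reach the hepatocytes. Axin2 is a target gene and an inhibitor of Wnt/β-catenin signalling, so the sort sets cells with Axin2 promoter activity against the remaining hepatocytes. The comparison asks how the breakdown enzymes differ between these cells.

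The libraries labelled Axin2-positive held 77994792 to 103386648 gene-assigned reads and those labelled Axin2-negative 75882611 to 101814611. In what follows, values by library are in the order of replicates 1, 2 and 3, and a group is named by its label, since 1 library goes against its own. Axin2 itself stood at 2.40, 22.6 and 24.2 CPM, a read count scaled to library size, under the Axin2-positive label, against 3.04, 3.75 and 5.75 CPM under the Axin2-negative label. It is the library labelled Axin2-positive 1 that goes against its label, and its counts stood close to those of Axin2-negative 1. Their median squared difference per gene was 2.56 times that of sampling noise, while the other 14 pairings of libraries gave 19.6 to 52.8 times. The tests and the within-pair differences are therefore also given without replicate 1, while group means, levels per length, pattern distances and the authors' FPKM include it. The Y-linked gene Ddx3y had 7164 and 6759 reads in replicate 2 and 0 to 3 in the other 4 libraries, so replicate 2 also differs in sex from replicates 1 and 3.

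In Axin2-positive 2 and 3, as labelled, 8 of the 10 enzymes were lower than in any Axin2-negative library, as were 17.1% of all tested genes. Sds, Sdsl, Hal and Agxt2l1 were furthest down, by 13.9-fold or more from the Axin2-negative library of the same index. Gldc and Amdhd1 were lower by more than 1 on the log2 scale in both pairs, Uroc1 and Ftcd by about 1, and Agxt by 0.38 at most. Prodh was higher than in any Axin2-negative library, as were 16% of all tested genes. In replicate 1 all 10 differences lay between -0.08 and 0.02 on the log2 scale.

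**Figure D1:**
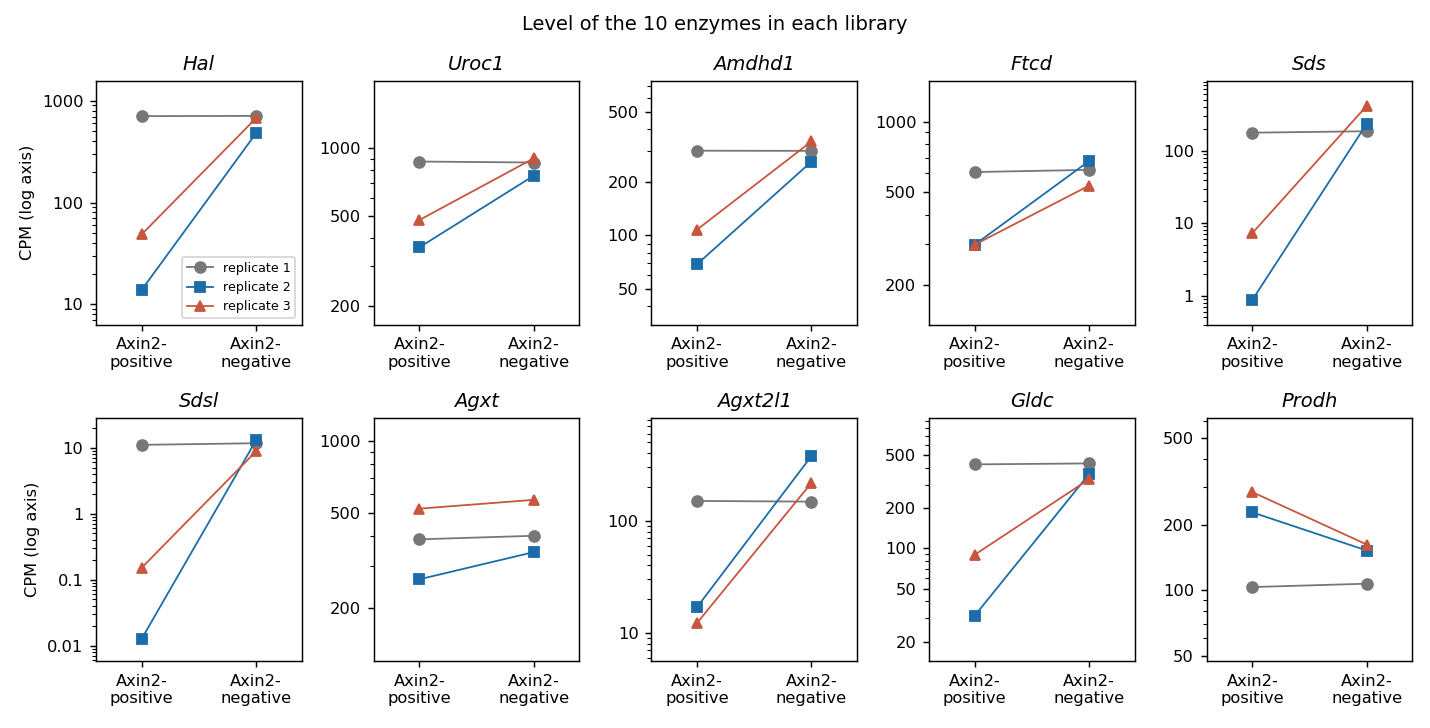
Level of each of the 10 enzymes in CPM (log axis, with its own range per panel), under the Axin2-positive label (left) and Axin2-negative (right); lines join libraries that share an index. Replicate 1 is flat in all 10 panels, while in replicates 2 and 3 the libraries labelled Axin2-positive lie lower for 9 genes and higher for Prodh.

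The breakdown of histidine in the liver runs through 4 enzymes that were all measured. Hal, histidine ammonia-lyase, takes the first step and releases ammonia and urocanate. Its level was 706, 13.9 and 48.7 CPM under the Axin2-positive label, against 711, 479 and 675 CPM under the Axin2-negative label. The log2 difference within a pair, taken on CPM plus 0.05, was -0.01, -5.11 and -3.79 in replicates 1, 2 and 3. The next enzyme, urocanate hydratase, is encoded by Uroc1, which gave 874, 364 and 481 CPM under the Axin2-positive label against 865, 756 and 902 CPM under the Axin2-negative label. Both low values were below every Axin2-negative library, with within-pair differences of -1.05 and -0.91 in replicates 2 and 3.

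Amdhd1 encodes the imidazolonepropionase that follows, and Ftcd the formimidoyltransferase cyclodeaminase that hands the last one-carbon unit to folate. Amdhd1 stood at 302, 68.7 and 108 CPM under the Axin2-positive label, against 302, 262 and 341 CPM under the Axin2-negative label. Ftcd gave 608, 297.1 and 297.1 CPM under the Axin2-positive label, against 621, 677 and 532 CPM under the Axin2-negative label. The libraries labelled Axin2-positive 2 and 3 were below every Axin2-negative library for all 4 histidine enzymes. Within pairs, Amdhd1 differed by -1.93 and -1.66 and Ftcd by -1.19 and -0.84 on the log2 scale in replicates 2 and 3. Hal had the most negative difference of the 4 enzymes in both pairs, followed by Amdhd1, and the order of Uroc1 and Ftcd turned between the pairs.

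Hal (chromosome 10, 93488768 to 93519304, plus strand, GRCm38) and Amdhd1 (chromosome 10, 93523338 to 93540033, minus strand) are neighbours that end 4034 bases apart with 0 protein-coding genes between them. Ftcd lies on the same chromosome (76575648 to 76590338, plus strand), and Uroc1 on chromosome 6 (90333284 to 90364551, plus strand). Promoter sequences from RefSeq (GRCm38.p6) were found for 8 of the 10 genes, Agxt2l1 under its newer symbol Etnppl. The 250 bases upstream of the start site are shown for the 3 promoters that hold the letters TCAAAG, a core of the motif bound by the TCF/LEF partners of β-catenin, on either strand, and for Amdhd1, which lies next to Hal and holds none of the motifs searched. Capitals mark motif matches, and each sequence reads along the strand of its gene.
Hal, chr10:93488518-93488767, plus strand: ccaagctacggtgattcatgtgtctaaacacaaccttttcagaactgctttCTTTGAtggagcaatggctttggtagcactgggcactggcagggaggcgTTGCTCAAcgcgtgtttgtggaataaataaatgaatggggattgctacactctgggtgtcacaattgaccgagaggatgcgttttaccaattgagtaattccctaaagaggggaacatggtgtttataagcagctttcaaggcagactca
Uroc1, chr6:90333039-90333288, plus strand: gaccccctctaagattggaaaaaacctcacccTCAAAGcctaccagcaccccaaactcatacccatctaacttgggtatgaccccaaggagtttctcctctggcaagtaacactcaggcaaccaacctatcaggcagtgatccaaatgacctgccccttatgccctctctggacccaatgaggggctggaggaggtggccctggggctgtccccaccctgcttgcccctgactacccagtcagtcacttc
Amdhd1, chr10:93540034-93540283, minus strand: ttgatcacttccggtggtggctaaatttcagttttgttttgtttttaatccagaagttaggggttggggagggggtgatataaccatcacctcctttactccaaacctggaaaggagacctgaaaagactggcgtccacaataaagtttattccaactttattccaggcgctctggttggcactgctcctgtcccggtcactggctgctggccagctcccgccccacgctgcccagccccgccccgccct
Agxt, chr1:93134990-93135239, plus strand: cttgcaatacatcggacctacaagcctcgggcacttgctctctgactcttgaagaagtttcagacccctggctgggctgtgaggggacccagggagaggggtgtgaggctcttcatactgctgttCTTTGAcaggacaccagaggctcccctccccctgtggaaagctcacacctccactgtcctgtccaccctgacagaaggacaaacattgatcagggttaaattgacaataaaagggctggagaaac

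The capitals in Uroc1 and Agxt and the first run in Hal are TCAAAG or its reverse complement CTTTGA. The second run in Hal, TTGCTCAA, is a match to TTGCNNAA, a C/EBP motif. TCAAAG was present in 3 of the 8 member promoters and in 13.8% of 32851 RefSeq promoter windows of the same length, and TTGCNNAA in 1 of 8 and in 9.56%. No match in a member promoter was found to CAAAGTCCA (HNF4A, 0.384% of all windows), to TGACGT (the CREB core, 6.47%) or to the HNF1 motif (0.371%). Each motif was searched on both strands, and TCAAAG and CAAAGTCCA can overlap by the letters CAAAG. The 3 promoters with TCAAAG belong to genes whose differences in replicate 2 ranged from -5.11 for Hal to -0.38 for Agxt.

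Sds and Sdsl encode serine dehydratase and a related enzyme, which turn serine into pyruvate and ammonia. Sds had 177, 0.874 and 7.30 CPM under the Axin2-positive label, against 186, 234 and 416 CPM under the Axin2-negative label. It was the only one of the 10 enzymes whose groups did not overlap over all 6 libraries, through a difference of -0.07 on the log2 scale in replicate 1, and 3.77% of all tested genes lay that way. For 0 enzymes did all 3 Axin2-positive values exceed all 3 Axin2-negative values, against 3.44% of tested genes. The within-pair log2 differences of Sds in replicates 2 and 3 were -7.99 and -5.82. The labels name a stranded kit but not whether reads were counted by strand, and Sds (chromosome 5, 120476526 to 120483932, plus strand) shares 360 exon bases, 21.3% of its exons, with Plbd2 on the opposite strand, and 141 with the antisense gene Gm15690. Plbd2 gave 91.6, 49.2 and 43.8 CPM under the Axin2-positive label against 92.4, 107 and 81.4 CPM under the Axin2-negative label. Sds reads and Plbd2 reads in the shared part cannot be told apart.

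Sdsl (chromosome 5, 120458186 to 120472810, minus strand) lies 3716 bases from Sds. Its level was 11.03, 0.0127 and 0.151 CPM under the Axin2-positive label, against 11.7, 12.9 and 8.80 CPM under the Axin2-negative label. Reads numbered 1072, 1 and 13 under the Axin2-positive label and 1117, 1038 and 772 under the Axin2-negative label. Axin2-positive 2 and 3 thus stood close to 0, and in replicate 2 the scaled ratio of the Axin2-negative to the Axin2-positive library was 1020 (exact binomial 95% interval 183 to 40307), and in replicate 3 it was 58.2 (33.8 to 110). These intervals cover counting error only. Sds and Sdsl differed from each other by less than they differed from any other of the 10 enzymes, with a root mean square distance of 0.66 between their centred log2 levels over the 6 libraries.

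Gldc encodes the decarboxylase of the mitochondrial glycine cleavage system. The gene (chromosome 19, 30098447 to 30175429, minus strand) had 426, 31.3 and 89.5 CPM under the Axin2-positive label, against 433, 360 and 330 CPM under the Axin2-negative label. Its within-pair log2 difference was -3.52 in replicate 2 and -1.88 in replicate 3. Both libraries lay below every Axin2-negative library, and Axin2-positive 2 was the lower of them.

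Agxt encodes alanine-glyoxylate aminotransferase, which converts glyoxylate to glycine and whose loss in humans leads to oxalate overproduction. It stood at 388, 264 and 521 CPM under the Axin2-positive label, against 402, 343 and 567 CPM under the Axin2-negative label. The groups overlapped, and each library labelled Axin2-positive was below its partner, with log2 differences of -0.05, -0.38 and -0.12. Agxt lies on chromosome 1 (93135240 to 93145421, plus strand).

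Agxt2l1 was named for its likeness to another aminotransferase, but its product, now called Etnppl, splits phosphoethanolamine into ammonia, phosphate and acetaldehyde. The gene (chromosome 3, 130617448 to 130637521, plus strand) had 150, 16.9 and 12.2 CPM under the Axin2-positive label, against 148, 378 and 218 CPM under the Axin2-negative label. Both low libraries were alike here, with within-pair log2 differences of -4.48 and -4.15. Among the Axin2-negative libraries replicate 2 had the highest value and replicate 1 the lowest.

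Prodh encodes proline dehydrogenase, which opens the breakdown of proline in mitochondria. It had 103, 228 and 283 CPM under the Axin2-positive label, against 107, 152 and 162 CPM under the Axin2-negative label. The libraries labelled Axin2-positive 2 and 3 were above every Axin2-negative library, with within-pair differences of 0.58 and 0.80 on the log2 scale. Prodh lies on chromosome 16 (18060357 to 18090203, minus strand).

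**Figure D2:**
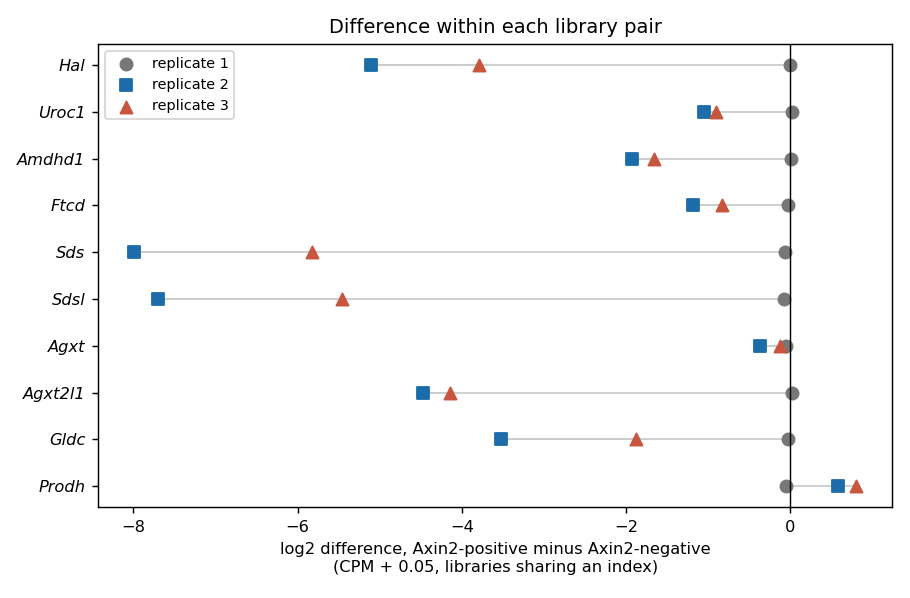
Log2 difference of Axin2-positive minus Axin2-negative, on CPM plus 0.05, for each of the 10 enzymes (rows) in replicates 1, 2 and 3 (circle, square, triangle). Replicate 1 lies near 0 for each gene, from -0.08 for Sdsl to 0.02 for Agxt2l1, and the replicate 2 differences reach -7.99 for Sds.

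With every library in the fit, 0 of the 10 enzymes passed edgeR's quasi-likelihood test at a Benjamini-Hochberg adjusted p under 0.05. The share of the 12343 tested genes that passed was 0% in either direction, and 2.26% had an unadjusted p under 0.05, none of them among the 10. The log2 fold change was -2.17 (SE 1.66) for Sds, -2.05 (SE 1.04) for Agxt2l1, -1.57 (SE 1.74) for Sdsl, -1.28 (SE 1.31) for Hal and -1.04 (SE 0.89) for Gldc. For Amdhd1 it was -0.92 (SE 0.55), for Ftcd -0.61 (SE 0.32), for Uroc1 -0.55 (SE 0.33), for Agxt -0.16 (SE 0.31) and for Prodh 0.54 (SE 0.39), and the edgeR adjusted p was 0.999 for all 10 genes. The median log2 fold change was -0.98 over the 10 enzymes and 0.00 over all genes tested. The group mean of Hal was 256 ± 390 CPM under the Axin2-positive label and 621 ± 125 CPM under the Axin2-negative label (SD, n = 3 each). Likewise Agxt2l1 averaged 59.9 ± 78.5 CPM and 248 ± 118 CPM, Sds 61.8 ± 100.05 and 279 ± 121 CPM, and Prodh 205 ± 92.1 and 141 ± 29.4 CPM under the Axin2-positive and Axin2-negative labels (SD, n = 3 each).

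With the replicate number as a block, edgeR again called 0 of the 10 genes and 0 of all genes. Hal, Uroc1, Amdhd1, Ftcd and Agxt2l1 then had an unadjusted p under 0.05 (0.0459, 0.0396, 0.0320, 0.0351 and 0.0407 by the edgeR quasi-likelihood test), as did 9.17% of all genes tested. Without the library labelled Axin2-positive 1, which goes against its label, the log2 fold changes were -7.04 for Sdsl, -6.09 for Sds, -4.31 for Hal, -4.09 for Agxt2l1, -2.63 for Gldc, -1.77 for Amdhd1, -1.04 for Ftcd, -0.99 for Uroc1, -0.16 for Agxt and 0.86 for Prodh. The lowest adjusted p among them was 0.127, that of Sdsl (edgeR quasi-likelihood test).

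A further fit used replicates 2 and 3 alone, paired by index, and has 1 residual degree of freedom among its 4 libraries. Replicate 1 was set aside with its Axin2 level and small differences already known, so this fit offers no independent evidence of a difference. In this fit 8 of the 10 enzymes were called lower, against 4.01% of 12385 genes, and 1 higher, against 3.43%. Agxt2l1 had the smallest adjusted p (edgeR quasi-likelihood test, log2 fold change -4.32, SE 0.14, adjusted p = 0.00165). Amdhd1 (-1.79, adjusted p = 0.00530), Hal (-4.45, adjusted p = 0.00673), Sds (-6.80, adjusted p = 0.00751) and Sdsl (-6.95, adjusted p = 0.00751) followed by the same edgeR test. The call also took in Uroc1 (-0.98, adjusted p = 0.0130), Ftcd (-1.01, adjusted p = 0.0194) and Gldc (-2.70, adjusted p = 0.0284), and Prodh was called higher (0.69, adjusted p = 0.0338). Agxt did not pass (-0.25, SE 0.12, edgeR adjusted p = 0.254). Tested against a fold of 1.5, the calls were Agxt2l1, Amdhd1, Hal, Sds and Sdsl, each lower with an edgeR adjusted p from 0.00197 to 0.0128, against 0.888% of all genes, and 0 higher, against 0.791%. Gldc (0.0651), Uroc1 (0.0884), Ftcd (0.116) and Prodh (0.780) had adjusted p-values above 0.05 in that edgeR test.

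Levels were also counted by library, with no test. The libraries labelled Axin2-positive 2 and 3 were below all 3 Axin2-negative libraries for 8 of the 10 enzymes and above them for Prodh, as were 17.1% and 16% of all tested genes. Both pairs showed a value lower by a fold of 2 or more for 6 enzymes (Hal, Amdhd1, Sds, Sdsl, Agxt2l1 and Gldc), against 2.97% of tested genes, and a value higher by that fold for 0 enzymes, against 1.33%. In replicate 1 all 10 lay within 0.25 of 0 on the log2 scale, and so did 88.4% of tested genes.

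**Figure D3:**
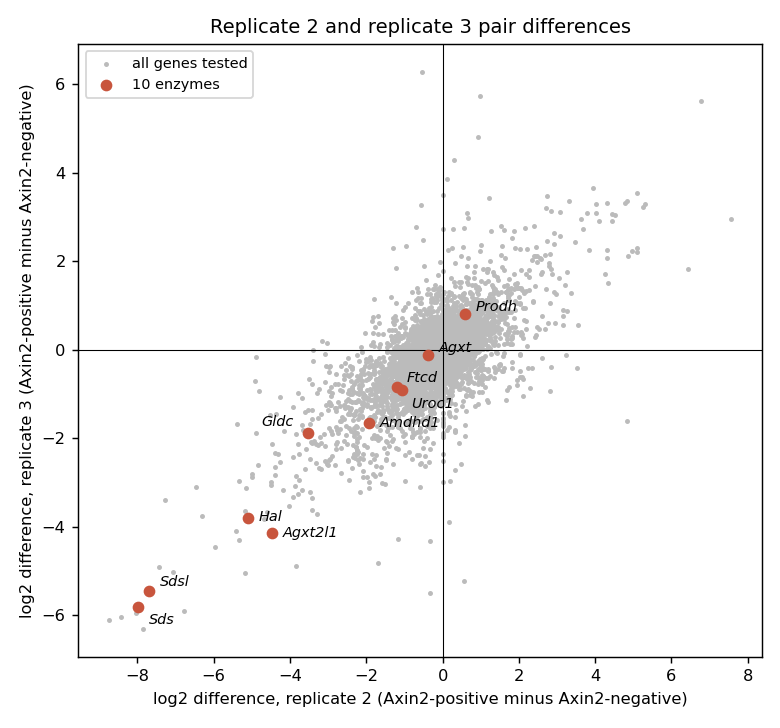
Log2 difference of Axin2-positive minus Axin2-negative in replicate 2 (horizontal) and replicate 3 (vertical) for the 12343 tested genes (grey) and the 10 enzymes (red, named). Sds and Sdsl lie near the lower left edge of all genes, Hal and Agxt2l1 nearer the centre, and Agxt and Prodh within the main cloud.

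Markers of other cell types were counted beside the enzymes. The most abundant of each list were Alb and Ahsg (hepatocyte), Mpeg1 and Clec4f (Kupffer cell), Stab2 and Kdr (endothelial cell), Reln and Dcn (stellate cell), Sox9 and Spp1 (bile duct) and Alas2 and Ptprc (blood cell). The 5 hepatocyte markers found in the table (Alb, Ttr, Apoa1, Fgb and Ahsg) summed to 91806 to 192434 CPM under the Axin2-positive label and 87549 to 191196 CPM under the Axin2-negative label. Bile duct markers (6 of 7 in the table) summed to 11.1, 0.190 and 0.174 CPM under the Axin2-positive label. Under the Axin2-negative label they summed to 11.6, 3.24 and 2.71 CPM. Krt19, Krt7 and Cftr were at 0 reads in Axin2-positive 2 and 3. They had no reads in Axin2-negative 2 either, where Sox9 and Spp1 made up the whole sum. In Axin2-negative 3 these 2 genes made up nearly all of it. The filter over 6 libraries kept 2 bile duct, 9 Kupffer cell, 5 hepatocyte, 10 endothelial and 4 stellate cell markers, and only 1 blood cell marker. In the fit of replicates 2 and 3, which was filtered on its own, 4.01% of all tested genes were called lower, and 0 markers of the endothelial, stellate and blood cell lists. Called lower there were 2 bile duct, 6 Kupffer cell and 2 hepatocyte markers. Among them Sox9 gave 7.80, 0.0633 and 0.0465 CPM under the Axin2-positive label against 8.28, 1.67 and 0.923 CPM under the Axin2-negative label, and Spp1 gave 3.16, 0.101 and 0.128 CPM under the Axin2-positive label against 3.08, 1.57 and 1.76 CPM under the Axin2-negative label. All 12 Kupffer cell markers were in the table, with none at 0 in both Axin2-positive 2 and 3. They summed to 34.3, 96.4 and 43.5 CPM under the Axin2-positive label against 34.4, 106 and 71.3 CPM under the Axin2-negative label. Most of each sum was Mpeg1, at 30.2, 95.1 and 38.2 CPM against 30.1, 101 and 41.3 CPM, which was not called. Clec4f, which was called lower, gave 1.05, 0.101 and 1.24 CPM against 0.909, 1.13 and 7.25 CPM. The 10 endothelial markers summed to 53.7, 2.06 and 52.9 CPM under the Axin2-positive label against 51.1, 5.94 and 73.7 CPM under the Axin2-negative label. The 8 stellate cell markers summed to 5.53, 0.203 and 4.57 CPM under the Axin2-positive label against 5.28, 0.933 and 5.81 CPM under the Axin2-negative label, with Col1a1 at 0 in Axin2-positive 2 and 3. Blood cell markers (4 of 8) summed to 16.4, 191 and 26.9 CPM under the Axin2-positive label. Under the Axin2-negative label the sums were 15.8, 199.8 and 17.1 CPM. Nearly all of these sums came from Alas2, a gene of heme synthesis in red cells. Cd79a was at 0 in Axin2-positive 2 and 3, and also in Axin2-negative 3, where Alas2 and Ptprc made up the whole sum. The part of these cell types in the enzyme differences was not tested. Fewer cells of a type cannot be told apart from less RNA per cell in such bulk samples.

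Levels of different genes were compared per length, as CPM per kilobase of annotated exon. In the Axin2-negative libraries Agxt was highest at 258 ± 68.4, then Uroc1 at 242 ± 21.9, Ftcd at 191 ± 23.0, Sds at 164 ± 71.6, Amdhd1 at 124 ± 16.3 and Hal at 112 ± 22.5 CPM per kilobase (SD, n = 3). Gldc followed at 61.5 ± 8.75, Agxt2l1 at 30.003 ± 14.2, Prodh at 18.0 ± 3.77 and Sdsl at 7.44 ± 1.41 CPM per kilobase (SD, n = 3). Neighbours in this order whose libraries overlapped were Agxt and Uroc1, Ftcd and Sds, Sds and Amdhd1, Amdhd1 and Hal, and Agxt2l1 and Prodh. The order depends on the measure used. In the authors' deposited table, with FPKM per transcript, Sds (236 FPKM) and Hal (230 FPKM) stood above Ftcd (222 FPKM) and Amdhd1 (126 FPKM) in Axin2-negative cells. How much of this is due to length was not tested. Axin2-positive 2 had another order, and Prodh at 29.3 CPM per kilobase stood above Hal at 2.50, Sds at 0.516, Gldc at 5.13 and Agxt2l1 at 2.05 CPM per kilobase. Axin2-positive 3 had the same relation, with Prodh at 36.3 above Hal at 8.77, Sds at 4.31, Gldc at 14.7 and Agxt2l1 at 1.48 CPM per kilobase.

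The authors' deposited table gives 1 FPKM value per transcript and group, which cannot be given here without replicate 1. In it Sdsl stood at 3.39 FPKM in Axin2-positive and 11.8 FPKM in Axin2-negative cells, and the main transcript of Agxt2l1 at 20.9 and 83.0 FPKM in Axin2-positive and Axin2-negative cells. Both were marked significant by the authors' deposited table (p = 5e-05, q = 0.00961). Another tested transcript of Agxt2l1, at 0.922 FPKM in Axin2-positive and 1.24 FPKM in Axin2-negative cells, was not significant in the authors' deposited table (p = 0.852, q = 0.9995). Of the 13843 tested transcripts in that table, 0.173% were significant and lower in Axin2-positive cells and 0.527% significant and higher. The other 8 enzymes were not significant in the authors' deposited table, with q-values from 0.501 for Gldc upward. Among these, Sds gave 54.1 FPKM in Axin2-positive cells and 236 FPKM in Axin2-negative cells in the authors' deposited table, Hal 99.98 FPKM in Axin2-positive and 230 FPKM in Axin2-negative cells, and Prodh 97.8 FPKM in Axin2-positive and 67.1 FPKM in Axin2-negative cells.

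**Figure D4:**
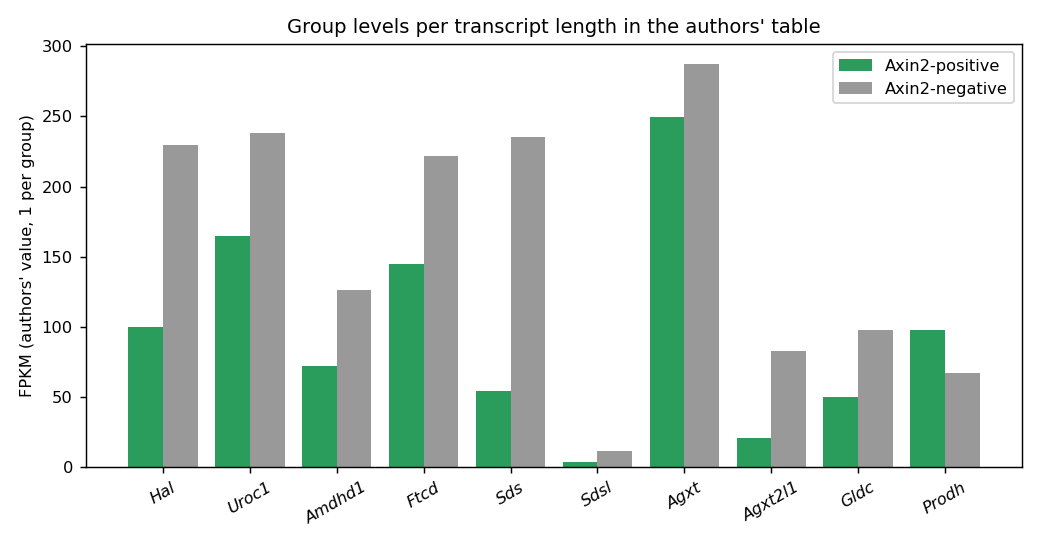
FPKM of the 10 enzymes in the authors' deposited table, 1 value per group with no error available (Axin2-positive green, Axin2-negative grey, linear axis from 0). Prodh is the only gene whose Axin2-positive bar is the taller one, and Sdsl has the shortest bars at 3.39 and 11.8 FPKM.

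Other genes of the same pathways were taken from a list. Of 53 listed genes 51 were in the table and 50 were tested, with 0 called over 6 libraries and a median log2 fold change of -0.03. The fit of replicates 2 and 3 called 3 of them higher and 2 lower, where 3.43% and 4.01% of all tested genes were called, so these counts are near the background. Their median log2 fold change was -0.05 there, against 0.00 over all genes. In the histidine and folate group, Hnmt, histamine methyltransferase, was called lower (edgeR quasi-likelihood test, log2 fold change -1.52, SE 0.10, adjusted p = 0.00530). Hnmt stood at 17.8, 6.32 and 6.88 CPM under the Axin2-positive label, against 17.1, 18.1 and 19.7 CPM under the Axin2-negative label. A pair of mitochondrial folate enzymes at low levels were called in opposite directions by the edgeR test, Mthfd1l lower (-3.67, adjusted p = 0.0400, on 2 and 3 reads in Axin2-positive 2 and 3) and Mthfd2 higher (1.62, adjusted p = 0.0394). Aldh1l1 and Mthfd1, abundant folate enzymes of the cytosol, had log2 fold changes of -0.34 and -0.05 in that fit and did not pass.

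The partners of Gldc in the glycine cleavage system are Amt, Gcsh and Dld. In the fit of replicates 2 and 3 the log2 fold change was 0.06 for Amt, 0.19 for Gcsh and 0.12 for Dld, with edgeR adjusted p-values of 0.817, 0.269 and 0.499, against -2.70 for Gldc. Shmt1 and Shmt2, which interconvert serine and glycine, gave -0.19 and -0.05 (edgeR adjusted p = 0.302 and 0.788). In this group Gcat, which splits the threonine product aminoketobutyrate into glycine, was called higher (0.60, SE 0.10, edgeR adjusted p = 0.0309). Among 6 tested glyoxylate genes 0 were called. Hao2 had the largest change (1.25, edgeR adjusted p = 0.0506), on 18 reads in Axin2-positive 2 and 2 in Axin2-negative 2. Agxt2 gave 0.49 (edgeR adjusted p = 0.0611), and Hao1, which makes glyoxylate from glycolate, gave 0.51 (edgeR adjusted p = 0.0827). Hoga1 alone of this group had a negative change, at -0.32.

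Oat, ornithine aminotransferase, shares the product of Prodh and was called higher as well. It stood at 42.7, 1029 and 2004 CPM under the Axin2-positive label, against 40.9, 281 and 606 CPM under the Axin2-negative label. The edgeR quasi-likelihood test on replicates 2 and 3 gave a log2 fold change of 1.80 (SE 0.11, adjusted p = 0.00455). Aldh4a1, which completes proline breakdown after Prodh, gave 0.06 and did not pass (edgeR adjusted p = 0.767), nor did Prodh2, which acts on hydroxyproline (-0.40, edgeR adjusted p = 0.106). Of the 6 phosphoethanolamine genes 0 were called. Etnk2, which makes phosphoethanolamine, and Pcyt2, which uses it for phospholipid synthesis, gave -0.09 and -0.28. Phospho1, at low levels, had the largest change of this group and lay just above the threshold (1.27, edgeR adjusted p = 0.0509). Against a fold of 1.5 the calls among the 50 genes were Hnmt, lower, and Oat, higher.

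**Figure D5:**
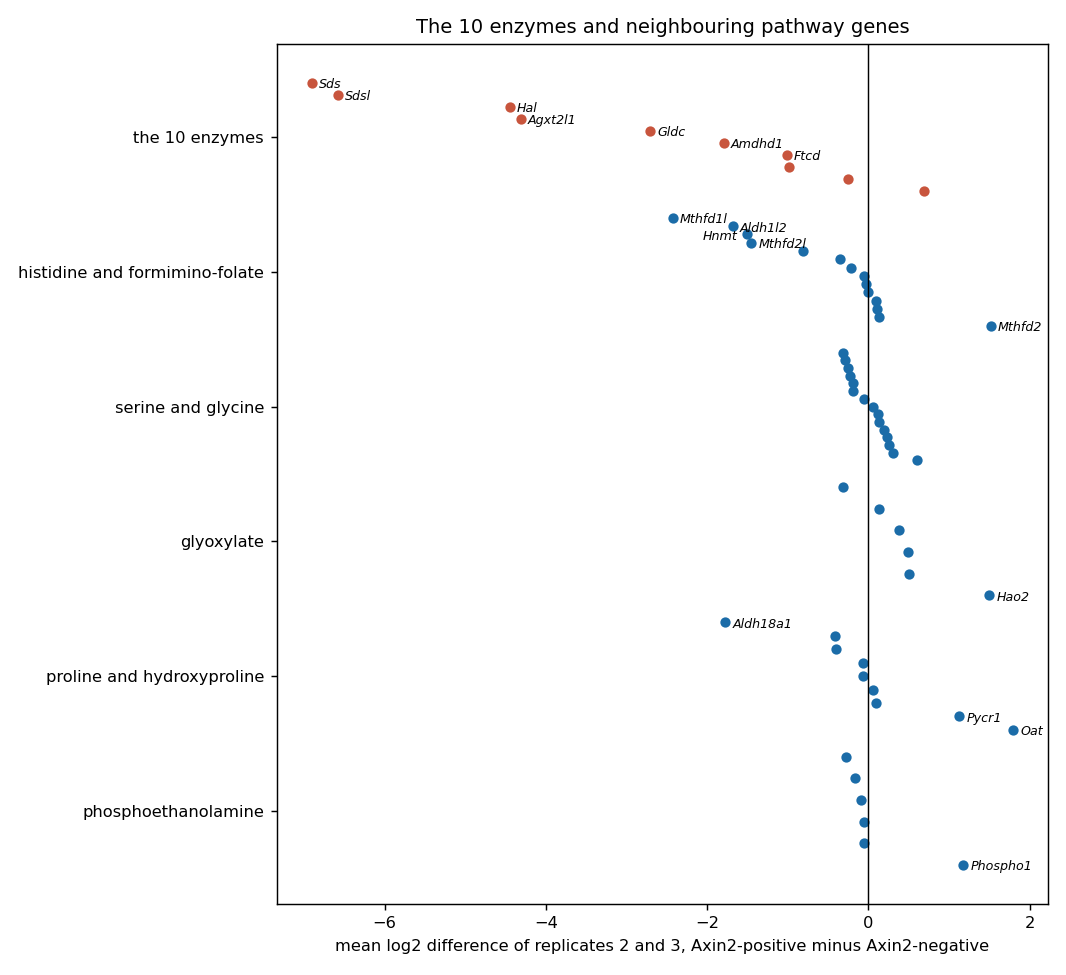
Mean of the replicate 2 and replicate 3 log2 differences, Axin2-positive minus Axin2-negative, for the 10 enzymes (red) and 50 other pathway genes in 5 groups (blue), 1 point per gene; genes beyond 1 in either direction are named. Among the pathway genes Mthfd1l lies lowest and Oat highest.

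Genes with the most similar pattern were found by the root mean square distance between log2 levels centred on the mean of the 6 libraries, among 8644 genes with a mean of at least 5 CPM. Sfxn1, a mitochondrial serine transporter, was nearest to Hal at 0.25, with 154, 4.62 and 9.72 CPM under the Axin2-positive label against 154, 120 and 139 CPM under the Axin2-negative label. Cyp2f2 and Cdh1, known markers of hepatocytes near the portal vein, were nearest to Sdsl at 0.30 and 0.41. Cryl1 and Fgfr2 were nearest to Sds at 0.54 each, Car14 and Bdh2 to Agxt2l1 at 0.39 and 0.68, and Aspg and Zfp750 to Gldc at 0.17 and 0.26. Aspg, an asparaginase, gave 292, 28.8 and 57.4 CPM under the Axin2-positive label, against 300.1, 290 and 251 CPM under the Axin2-negative label. The second gene for Hal was Plxna2 (0.31), and Ly6e and Ifi44 were nearest to Amdhd1 (0.15 and 0.18), Bhlhe40 and Lrch1 to Uroc1 (0.06 and 0.07) and Steap3 and Plbd2 to Ftcd (0.03 and 0.06). Fam169b was close to Agxt (0.10), and Nhlrc2 and Dcun1d4 were nearest to Prodh (0.11 each). The distance depends on how large a gene's differences are, so distances are not compared between the 10 enzymes.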

How the data were processed

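Raw read counts per gene for 6 libraries were deposited by the authors. Alignment was to mm10 with TopHat2 (2.0.11), as listed in the submitters' processing notes; the sources used here name neither the gene counter nor its strand setting. A table of FPKM per transcript, with p-values and q-values, was deposited by the authors too and comes from Cuffdiff (2.2.2), per the file headers and the notes.

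Differences were tested by edgeR 4.0.16 under R 4.3.3: genes kept by filterByExpr, totals scaled by TMM, group as the one term, quasi-likelihood F test, Benjamini-Hochberg adjustment over all genes tested and a threshold of 0.05. CPM uses the scaled totals; within-pair differences add 0.05 CPM. Alternatives were DESeq2 1.42.0, limma-voom (limma 3.58.1), other scalings and filters, a threshold of 0.01, the replicate block, and leaving out libraries or pairs. The code was tested on simulated data. The 10 genes, the lists and the fits without replicate 1 were chosen with earlier results of these data known.

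Deviations from the group means correlated at 0.68, 0.82 and 0.75 between libraries of the same index in replicates 1, 2 and 3, and at 0.14 or less between others, so the index was taken to pair libraries. Deviations from a mean of 3 libraries sum to 0, so the low values between others are not separate support for the pairing. Named genes were the 10 enzymes, Axin2, the 2 nearest patterns per enzyme, the pathway genes called and the 2 most abundant markers per list. One gene that this rule names is not reported here. Further pathway and marker genes, and Plbd2 and Ddx3y, were named after their values were seen. Coordinates and exon lengths are from GENCODE M21 (GRCm38, the same build as mm10). Gldc shares stretches of 200 to 206 bases, at 95% identity or more, with transcripts of 4 other genes.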

Additional observations from a re-analysis of the deposited data

How the results depend on the processing

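Over 6 libraries, 0 genes, 0 of the 10 enzymes and 0 of the pathway genes were called with DESeq2, limma-voom, RLE scaling, total counts, both other filters, the 0.01 threshold or the replicate block, except that DESeq2 gave no adjusted p for 92 of 17275 genes, Hal and Sdsl among them, and so could call neither enzyme. With the replicate block the log2 fold change of Hal was -3.16, that of Sds -5.13, that of Sdsl -4.09, that of Agxt2l1 -3.09 and that of Gldc -1.82. Leaving out 1 library gave 0 to 1 higher and 0 to 5 lower calls over all genes, the most without the library labelled Axin2-positive 1, and 0 among the enzymes and pathway genes. With the pair of replicate 2 or the pair of replicate 3 left out there were 0 calls. Without replicate 1 there were 425 higher and 497 lower calls, with 1 and 8 among the enzymes and 3 and 2 among the pathway genes. Tested against a fold of 1.5 these were 98 and 110, 0 and 5, and 1 and 1. The sign of the log2 fold change held in every alternative for 9 enzymes; that of Agxt ranged from -0.42 to 0.075 when libraries were left out, and was positive without the library labelled Axin2-positive 2 (0.055) or Axin2-negative 3 (0.075). Without single libraries or pairs it ranged from -4.45 to -0.72 for Hal, from -6.80 to -1.59 for Sds, from -7.04 to -0.99 for Sdsl, from -4.32 to -1.57 for Agxt2l1, from -2.70 to -0.54 for Gldc and from 0.24 to 0.86 for Prodh. The cause of these shifts was not tested. With an offset of 0.5 CPM the within-pair difference of Sdsl shrank to -4.71 in replicate 2 and -3.84 in replicate 3, and that of Sds to -7.42 in replicate 2. Every within-pair difference, those of Sdsl and Sds included, moved by less than the spread between the 3 pairs, with that offset or with total counts. Replicate 1 near 0 makes this spread wide. CPM per kilobase of exon in place of the authors' FPKM moved 8 of 20 group levels, by most for Prodh (26.3 against 97.8 in Axin2-positive cells). Depth limits Sdsl, with 1 read in Axin2-positive 2.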
